A study of Mus musculus with 6 samples.

Results

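Regulatory T cells of Foxo1 knockout mice that also carried an active form of Foxo1 (Foxo1KO/Foxo1AAA) were set against those of wild-type mice (WT), to describe what still differed from WT once the active form was present. Of the 6 arrays in the study, 3 entered this comparison: the single Foxo1KO/Foxo1AAA array and both WT arrays. They were chosen by their labels, not by any measured value, and all 45101 probe sets were used. The remaining arrays were 2 of Foxo1KO cells, with the deletion and without the active form, and 1 of Foxo1AAA cells, with the active form and without the deletion. All mice were labelled C57BL/6, and all samples were labelled nTreg cells obtained by cell sorting. The study asked whether genes that changed in the knockout recovered when the active form was present. The promoter or Cre line behind the deletion, the deleted part of Foxo1, the site of the Foxo1AAA transgene, the sort gates, and the ages, sexes and number of mice per array are stated in none of the sources used.

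Foxo1 is a forkhead transcription factor that Akt phosphorylates and keeps out of the nucleus when the T cell receptor and cytokine receptors signal. The Foxo1AAA form stays active because Akt cannot phosphorylate it. In T cells Foxo1 is known for maintaining genes of the resting state, such as Il7r, Ccr7 and Klf2, and in regulatory T cells for restraining effector genes such as Ifng. Regulatory T cells suppress other immune cells and depend on the transcription factor Foxp3.

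Arrays of each mutant genotype stood apart from WT before any gene was considered, and those with Foxo1AAA lay close to each other. Between the Foxo1KO/Foxo1AAA array and the WT arrays, 1778 and 1755 probe sets lay at least 2-fold apart (3.94% and 3.89%), whereas 47 (0.104%) did so between the WT arrays. The distance from WT was not particular to Foxo1AAA. From 1322 to 1425 probe sets (2.93% to 3.16%) lay that far apart between WT and Foxo1KO arrays. Foxo1AAA against WT gave 1441 and 1393 (3.2% and 3.09%). Only 112 probe sets (0.248%) lay that far apart between Foxo1KO/Foxo1AAA and Foxo1AAA. Sex-specific transcripts also separated the arrays. Xist, the RNA that coats the inactive X chromosome of female cells, measured 13.43 and 12.03 on the WT arrays, 13.14 and 12.59 on the Foxo1KO arrays, 6.04 on Foxo1AAA and 6.27 on Foxo1KO/Foxo1AAA, all on the log2 scale used throughout. The Y chromosome gene Eif2s3y measured 3.91 and 10.09 in WT, 4.05 and 9.91 in Foxo1KO, 10.59 in Foxo1AAA and 10.56 in Foxo1KO/Foxo1AAA. Replicate 1 of WT and of Foxo1KO thus carried Xist alone, replicate 2 of each carried both transcripts, and the Foxo1AAA-carrying arrays carried the Y transcript alone. With 1 array for each genotype that carries Foxo1AAA, the transgene, the sex of the mice and any difference in the handling of those arrays cannot be told apart in any result below.

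The targeted gene was lower on the Foxo1KO/Foxo1AAA array than on the WT and Foxo1KO arrays. The brightest Foxo1 probe set measured 11.03 and 11.35 in WT, 10.87 and 10.65 in Foxo1KO, 10.71 in Foxo1AAA and 9.66 in Foxo1KO/Foxo1AAA. The Foxo1KO/Foxo1AAA value was the lowest of the 6, below all Foxo1KO and WT arrays. It fell by 1.54 against WT (SE 0.17, Benjamini-Hochberg adjusted p = 0.000512 by limma's moderated test over all probe sets) and by 1.10 against Foxo1KO (adjusted p = 0.00211). Of the other 3 Foxo1 probe sets, those of usable brightness also fell, by 1.07 and 1.30, and a dim one fell by 0.38 (adjusted p = 0.0489). The positions of these probe sets relative to the deletion and to the transgene's message were not known, so they check neither. Gt(ROSA)26Sor, the noncoding RNA of the Rosa26 locus that is widely used to hold transgenes, measured 10.36 and 10.18 in WT, 9.998 and 9.88 in Foxo1KO, 9.03 in Foxo1AAA and 8.96 in Foxo1KO/Foxo1AAA. It was low on both Foxo1AAA-carrying arrays, with a difference from WT of -1.31 (SE 0.14, limma adjusted p = 0.000411). The related factors Foxo3 (-0.03, adjusted p = 0.891, a sign that turned when array medians were aligned and without WT replicate 1) and Foxo4 (-0.42, adjusted p = 0.0578) were not called. Foxo4, which ranged from -0.548 to -0.296 over the settings, was called lower under some alternatives.

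What remained different from WT was mostly higher, when size was taken into account. At a Benjamini-Hochberg adjusted p under 0.05 (limma), 10972 of 45101 probe sets were called (24.3%), 5256 higher (11.7%) and 5716 lower (12.7%). Counting 1 probe set per gene, 4203 of 18194 genes were called (23.1%), 2214 higher (12.2%) and 1989 lower (10.9%). The median gene lay at -0.05, and aligning the array medians turned the split of probe sets to 6332 higher and 3784 lower, so the balance of small differences rests on the scaling. Without WT replicate 2 the count of probe sets was 7219. The balance of large differences was less even: 601 genes (3.30%) were called and at least 2-fold from both WT arrays, 574 of them higher (3.15%) and 27 lower (0.148%). Among the 574, 175 were at least 4-fold higher as measured and 60 at least 8-fold, against 2 and 1 of the 27. Of the 27, the gene more than 8-fold lower was the sex-specific Xist, and the other past 4-fold was Ctse. For 114 of the 574 the WT mean lay below 5.47, the level under which the lowest 25% of genes fall. Folds of single dim genes are given against that floor, as at least the stated size, and their log2 differences have no exact size. The counts of 175 and 60 were not held to the floor. They include dim genes such as Clec4a3, which was at least 7.05-fold higher against the floor. The error behind each test came from the WT and Foxo1KO pairs, and the lone Foxo1KO/Foxo1AAA array was assumed to vary like them. Whether replicate arrays came from separate mice is not stated, and the p-values reflect only how far these arrays spread.

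**Figure D1:**
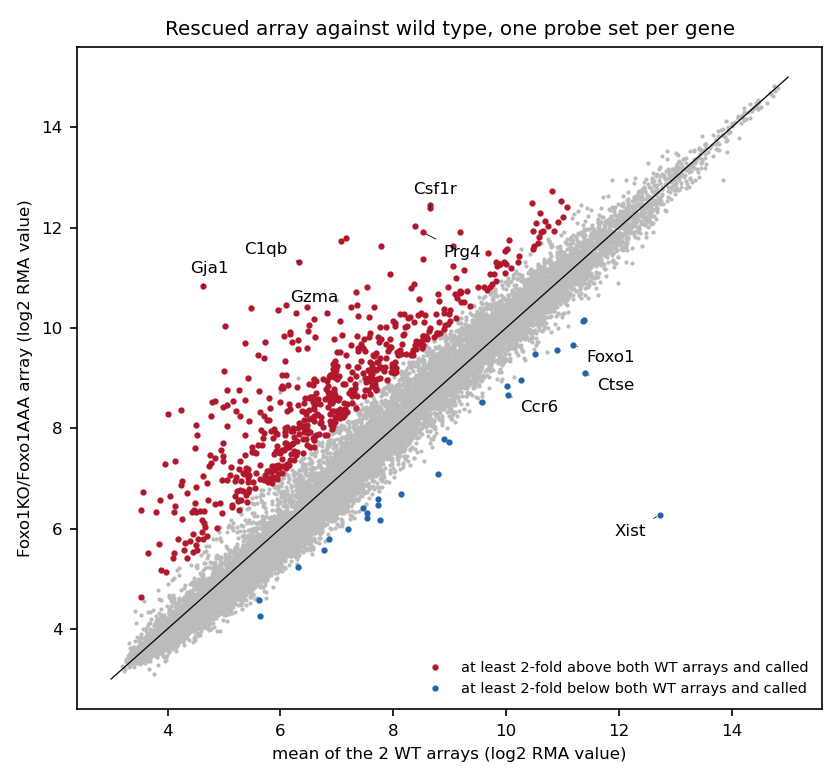
Each point is 1 gene, with its mean log2 level over the 2 WT arrays on the horizontal axis and its log2 level on the Foxo1KO/Foxo1AAA array on the vertical axis; coloured points are the 601 genes called and at least 2-fold from both WT arrays, and named genes are labelled. The coloured genes lie mainly above the diagonal, 574 against 27 below it.

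Transcripts that define T cells did not pass the test against WT. Of 11 measured T cell markers, such as the receptor chain gene Cd3e, none was called higher or lower than WT, with differences from -0.40 to 0.27 and a median of 0.01. Under the alternatives 0 to 1 of them were called higher and 0 to 3 lower. Cd5, an inhibitory co-receptor, just missed the threshold (-0.40, limma adjusted p = 0.0506) and was called lower under 7 alternatives. Foxp3 was read by a single dim probe set, at 5.25 and 5.43 in WT, 5.54 and 5.58 in Foxo1KO, 5.41 in Foxo1AAA and 5.10 in Foxo1KO/Foxo1AAA, which lies near background and does not show whether Foxp3 differed (-0.24, limma adjusted p = 0.216). Over all genes, 12.2% were called higher than WT and 10.9% lower. Of 28 genes of the Treg signature, 4 were called higher and 5 lower, with a median of -0.06. The surface receptor Lag3 was the largest rise among them, at 7.02 and 6.95 in WT, 6.74 and 6.68 in Foxo1KO, 9.11 in Foxo1AAA and 9.16 in Foxo1KO/Foxo1AAA. Both Foxo1AAA-carrying arrays lay above the other 4, and Foxo1KO/Foxo1AAA was 4.51-fold above WT (log2 2.17, SE 0.12, adjusted p = 1.88e-05).

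Many of the largest rises were of genes known from macrophages. The largest rise among the named genes, Gja1, a gap junction protein, is on none of the myeloid or macrophage lists used below. Gja1 measured 4.54 and 4.72 in WT, 4.88 and 4.52 in Foxo1KO, 9.86 in Foxo1AAA and 10.84 in Foxo1KO/Foxo1AAA. Its WT level lay under the floor, and the rise was at least 41.4-fold (log2 6.21, SE 0.17, limma adjusted p = 7.32e-07). C1qb, a chain of the complement component C1q that macrophages make, measured 6.14 and 6.51 in WT, 7.09 and 6.27 in Foxo1KO, 11.004 in Foxo1AAA and 11.32 in Foxo1KO/Foxo1AAA. WT and Foxo1KO arrays overlapped, while both Foxo1AAA-carrying arrays lay far above them; the rise over WT was 31.8-fold (log2 4.99, SE 0.29, adjusted p = 2.55e-05). Vcam1, an adhesion molecule, was at 6.71 and 7.63 in WT, 6.90 and 6.07 in Foxo1KO, 11.44 in Foxo1AAA and 11.79 in Foxo1KO/Foxo1AAA, a 24.7-fold rise. Other genes among the 20 largest rises that macrophages are known to express were likewise higher on both Foxo1AAA-carrying arrays than on the other 4. They were the scavenger protein Cd5l (log2 4.66), the mannose receptor Mrc1 (4.36), the C1q chains C1qc (3.99) and C1qa (3.96), and the iron exporter Slc40a1 (3.84). Others were dim in WT and rose by at least 23.7-fold (the proton pump subunit Atp6v0d2), 18.7-fold (the myeloid surface receptor Adgre4), 12.7-fold (the calcium-binding protein Aif1) and 7.05-fold (the myeloid surface receptor Clec4a3). Lpl, the lipoprotein lipase, rose by 3.79, with 9.85 on Foxo1KO/Foxo1AAA and 8.58 on Foxo1AAA against 6.01 and 6.12 in WT.

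**Figure D2:**
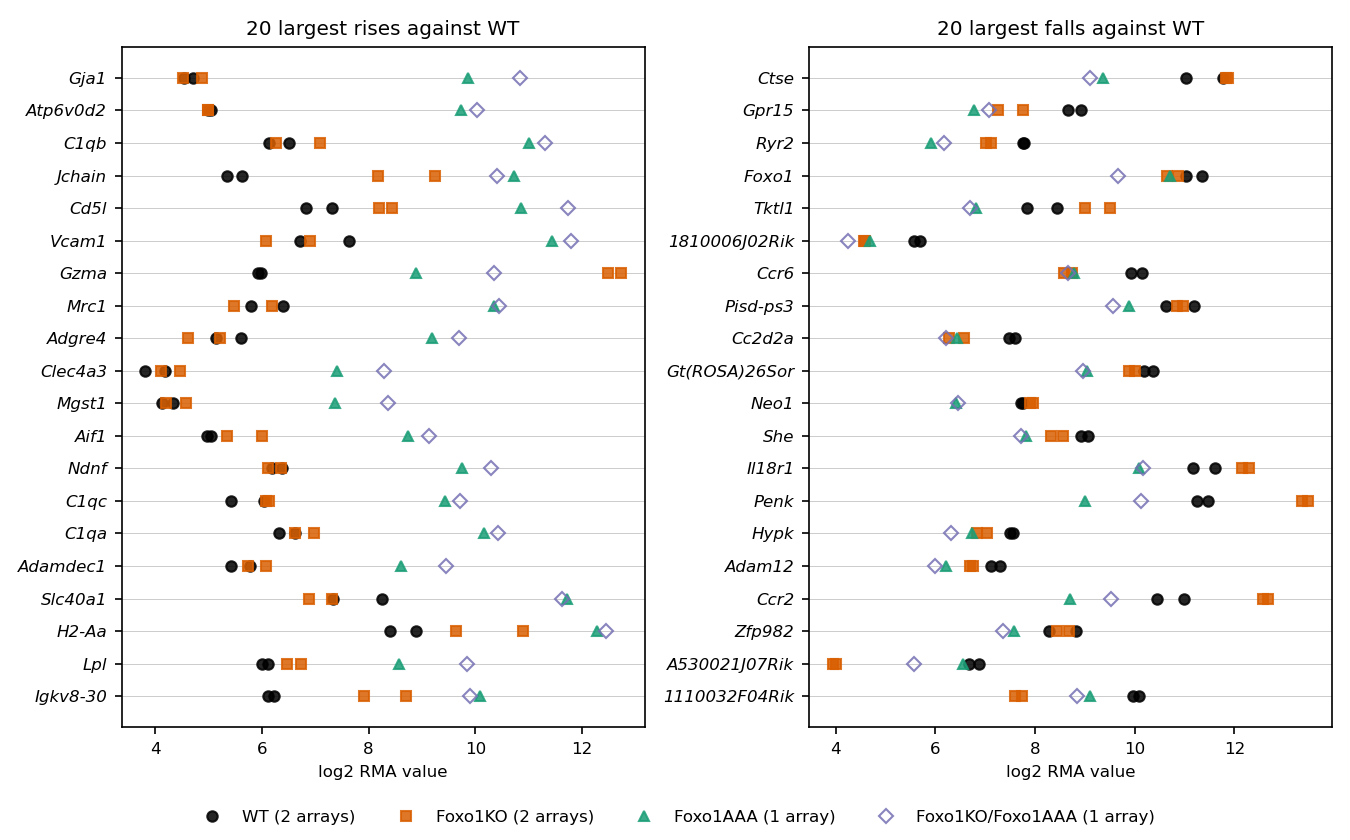
Log2 levels of the genes with the largest rises and the largest falls on the Foxo1KO/Foxo1AAA array against WT, with 1 point for each of the 6 arrays, coloured by genotype. For Gja1 and C1qb the Foxo1AAA and Foxo1KO/Foxo1AAA points lie together between 9.86 and 11.32, well above the WT and Foxo1KO points.

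As lists, markers of other cell types moved with these rises. Their calls are read against 12.2% of all genes called higher than WT and 10.9% lower. Of 18 measured myeloid markers, 14 were called higher than WT (12 of them at least 2-fold from both WT arrays) and 2 lower, with a median of 2.97 against -0.05 over all genes. The macrophage growth factor receptor Csf1r was at 8.36 and 8.93 in WT, 9.12 and 8.52 in Foxo1KO, 11.99 in Foxo1AAA and 12.38 in Foxo1KO/Foxo1AAA. Summed on the linear scale, the myeloid markers came to 1993 and 2283 in WT, 3925 and 2915 in Foxo1KO, 17126 in Foxo1AAA and 20070 in Foxo1KO/Foxo1AAA, which is 9.39 times the WT mean. The Foxo1KO arrays lay above WT, and both Foxo1AAA-carrying arrays lay several times above all 4 others. Genes typical of the iron-recycling macrophages of the splenic red pulp were listed after the values were seen. The list holds several of the largest rises named above, such as C1qb, Vcam1 and Cd5l, so its direction supports nothing further. Its 17 measured members lay 1.85 to 4.99 above WT as measured, with some of them dim in WT. The part of other cells in the gene differences was not tested. In sorted bulk RNA a change in the number of cells of a type and a change in RNA per cell cannot be told apart.

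Of 12 dendritic cell markers 9 were called higher and 1 lower, with a median of 1.07. H2-Aa, a chain of MHC class II, was at 8.40 and 8.90 in WT, 10.89 and 9.63 in Foxo1KO, 12.28 in Foxo1AAA and 12.45 in Foxo1KO/Foxo1AAA. H2-Aa was above WT on both Foxo1KO arrays, and it was higher still with Foxo1AAA (13.9-fold over WT, log2 3.799, SE 0.42, limma adjusted p = 0.000583). H2-Ab1 (3.28), H2-Eb1 (3.08) and the class II invariant chain Cd74 (2.26) rose as well, while Zbtb46, a transcription factor of conventional dendritic cells, fell by 0.68, a call that ended when all probe sets of the gene were averaged (-0.17, adjusted p = 0.231). The summed dendritic markers were 1517 and 1811 in WT, 4421 and 2763 in Foxo1KO, 9577 in Foxo1AAA and 10653 in Foxo1KO/Foxo1AAA. Which type of cell the class II transcripts came from was not tested.

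B cell and antibody transcripts were higher too. Of 12 B cell markers 8 were called higher and none lower, with a median of 0.86, and the count ranged from 5 to 8 over the alternatives. Jchain, which links secreted antibody chains in plasma cells, was at 5.35 and 5.62 in WT, 9.24 and 8.18 in Foxo1KO, 10.72 in Foxo1AAA and 10.40 in Foxo1KO/Foxo1AAA. All 4 mutant arrays lay above WT and those with Foxo1AAA were highest, with a 30.2-fold rise over WT in Foxo1KO/Foxo1AAA (log2 4.92, SE 0.34, limma adjusted p = 5.92e-05). The antibody light chain segment Igkv8-30 rose by 3.74, the B cell receptor subunit Cd79b by 1.38 and the transcription factor Spib by 2.12. Ms4a1, which encodes CD20, varied widely, at 6.52 and 7.23 in WT and 8.32 and 6.25 in Foxo1KO, and its call at 9.06 in Foxo1KO/Foxo1AAA (adjusted p = 0.043) was lost under 4 alternatives, among them leaving out WT replicate 1. Pax5, the factor that fixes B cell identity, did not differ beyond its error (-0.17, adjusted p = 0.499). The summed B cell markers were 6450 and 7378 in WT, 6441 and 4502 in Foxo1KO, 15730 in Foxo1AAA and 13589 in Foxo1KO/Foxo1AAA.

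**Figure D3:**
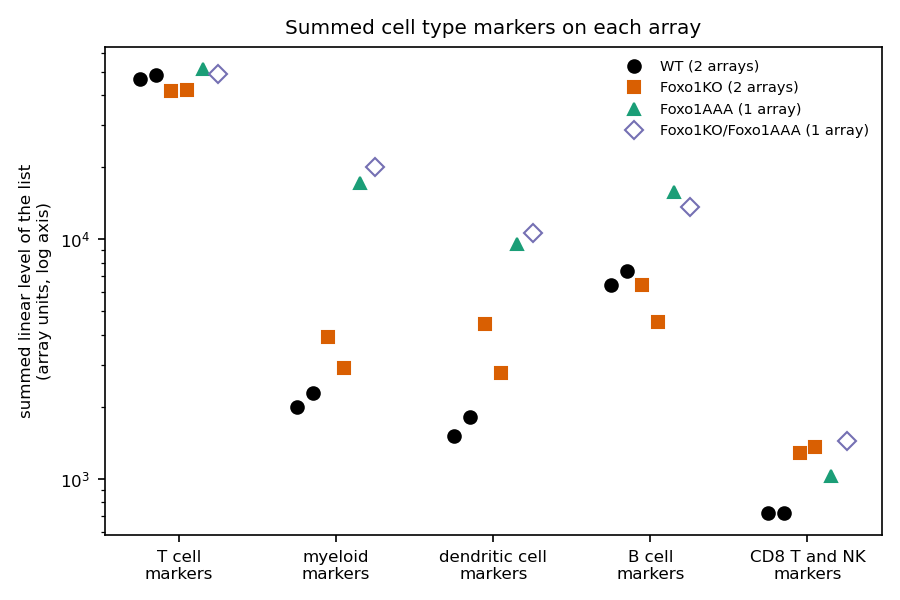
Summed linear level of the T cell, myeloid, dendritic, B cell, and CD8 T and NK marker lists on each of the 6 arrays, on a log axis. The myeloid, dendritic and B cell sums are highest on the Foxo1AAA and Foxo1KO/Foxo1AAA arrays, while the T cell sum stays between 41369 and 51204.

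Proliferation genes stayed high. In Foxo1KO/Foxo1AAA against WT, 12.2% of all genes were called higher and 10.9% lower. Of 49 measured cell cycle genes, 44 were called higher than WT in Foxo1KO/Foxo1AAA and none lower, 31 of them at least 2-fold from both WT arrays, with a median of 1.49. In Foxo1KO against WT, where 14.1% of all genes were called (7.34% higher, 6.77% lower), 46 were higher and 1 lower, with a median of 1.5. Against Foxo1KO, where 31.4% of all genes were called (13.9% higher, 17.5% lower), 14 of the 49 were higher and 2 lower in Foxo1KO/Foxo1AAA. Both comparisons with WT share the WT arrays. Aurkb, a kinase that corrects chromosome attachment in mitosis, was at 7.29 and 6.89 in WT, 9.06 and 8.85 in Foxo1KO, 9.25 in Foxo1AAA and 9.85 in Foxo1KO/Foxo1AAA. WT was lowest and Foxo1KO/Foxo1AAA highest, with no overlap between WT and any other array; the rise over WT was 6.78-fold (log2 2.76, SE 0.18, limma adjusted p = 4.18e-05), and that over Foxo1KO was 0.90 in log2 (adjusted p = 0.00723). Ube2c, the ubiquitin-conjugating enzyme of the anaphase-promoting complex, was at 9.36 and 9.02 in WT, 10.95 and 10.79 in Foxo1KO, 11.58 in Foxo1AAA and 11.91 in Foxo1KO/Foxo1AAA, a 6.59-fold rise. The spindle protein Nusap1 (2.58) and the kinetochore protein Cenpf (2.49) rose by similar amounts, although the mean of the Nusap1 probe sets rose by 1.54. The members not called, Ccne1 (0.30), Ccnd2 (-0.15), Mcm2 (0.24), Tyms (0.33) and Foxm1 (-0.27), are singled out here because they were the exceptions, and the Foxm1 difference turned to 0.23 when its probe sets were averaged. Over the alternatives 42 to 45 cell cycle genes were called higher and none lower.

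Promoters of the cell cycle list are shown because 44 of its 49 measured genes were called in 1 direction. The promoter set was every listed gene with an entry, called or not, and includes Mcm2 and the unmeasured Ccnb1. Many promoters of genes used late in the cycle hold CCAAT boxes and a short element, TTTGAA, known as the cell cycle genes homology region. In the 250 bases before the first listed start of each gene (RefSeq, GRCm38.p6), searched on both strands, 29 of the 40 listed genes with a promoter in the RefSeq table held CCAAT (72.5%), against 34.5% of 27025 genes. TTTGAA was in 10 of the 40 (25%) against 16.3%, and both were in 9 (22.5%) against 5.7%. A match describes these letters and is neither a binding site nor a cause. Capitals mark CCAAT or TTTGAA on either strand, so that ATTGG and TTCAAA are the reverse-strand forms, and each sequence runs 5′ to 3′ on the gene's strand up to the start. Ube2c lies at chr2:164769679-164769928 on the + strand, with 7 matches, of which CCAATTGG holds an overlapping match on each strand. Cenpf lies at chr1:189688087-189688336 on the - strand, with 2 CCAAT matches.
Ube2c: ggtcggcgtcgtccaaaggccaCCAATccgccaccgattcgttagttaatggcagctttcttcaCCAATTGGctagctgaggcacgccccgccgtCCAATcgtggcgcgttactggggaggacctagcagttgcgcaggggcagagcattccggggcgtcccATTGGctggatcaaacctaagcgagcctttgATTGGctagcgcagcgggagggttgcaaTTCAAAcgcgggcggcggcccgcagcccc
Cenpf: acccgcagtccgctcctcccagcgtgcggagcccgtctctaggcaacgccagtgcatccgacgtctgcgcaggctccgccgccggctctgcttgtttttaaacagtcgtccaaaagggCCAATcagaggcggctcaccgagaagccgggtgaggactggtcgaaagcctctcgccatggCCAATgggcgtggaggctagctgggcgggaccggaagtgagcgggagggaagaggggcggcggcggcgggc

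Genes that mark the knockout fell into those not called against WT, those still part-way, those past WT and Ccr6, which stayed with Foxo1KO. Ccr6 measured 8.65 in Foxo1KO/Foxo1AAA against 8.59 and 8.73 in Foxo1KO, and is described further below. The 29 measured knockout hallmark genes had been listed because they differed between Foxo1KO and WT, so that contrast supports nothing here, and the comparisons share arrays. Against WT, where 12.2% of all genes were called higher and 10.9% lower, 15 were called higher and 3 lower in Foxo1KO/Foxo1AAA. Of genes high in the knockout, granzyme A (Gzma), a protease that cytotoxic cells release, was at 5.92 and 5.98 in WT, 12.73 and 12.49 in Foxo1KO, 8.90 in Foxo1AAA and 10.35 in Foxo1KO/Foxo1AAA. The Foxo1KO/Foxo1AAA array lay between WT and Foxo1KO and above Foxo1AAA: 21.2-fold above WT (log2 4.40, SE 0.14, limma adjusted p = 1.96e-06) and below Foxo1KO by -2.26 (adjusted p = 2.27e-05). The NK cell receptor Klrc1 was at 3.94 and 4.34 in WT, 7.87 and 8.50 in Foxo1KO, 5.88 in Foxo1AAA and 7.34 in Foxo1KO/Foxo1AAA. It too lay between WT and Foxo1KO, at least 3.68-fold above WT (log2 3.20, or 1.72 as the mean of its probe sets). Ifng, the main cytokine of Th1 cells, was at 7.06 and 6.78 in WT, 9.12 and 9.36 in Foxo1KO, 7.16 in Foxo1AAA and 8.34 in Foxo1KO/Foxo1AAA. Foxo1AAA alone lay near WT, while Foxo1KO/Foxo1AAA stayed 2.69-fold above it (log2 1.43, SE 0.16, adjusted p = 0.000652).

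Granzyme B (Gzmb) came closer to WT than granzyme A. It measured 10.12 and 9.94 in WT, 14.41 and 14.47 in Foxo1KO, 8.78 in Foxo1AAA and 10.99 in Foxo1KO/Foxo1AAA, so that Foxo1AAA alone lay below WT and Foxo1KO/Foxo1AAA 1.94-fold above it (limma adjusted p = 0.00182). Ccr1, a chemokine receptor of effector cells, measured 5.49 and 5.44 in WT, 9.56 and 9.54 in Foxo1KO, 5.57 in Foxo1AAA and 5.70 in Foxo1KO/Foxo1AAA. It was not called against WT (0.24, SE 0.12, adjusted p = 0.173) and lay below Foxo1KO by -3.85. Anxa1, a regulator of inflammation (0.64, adjusted p = 0.123), and the kinase Sgk1 (0.56, adjusted p = 0.0882) were not called against WT either, but both were without WT replicate 1 (Anxa1 1.01, adjusted p = 0.00694; Sgk1 0.85, adjusted p = 0.00765). The transcription factor Arnt2 (1.53, or 0.40 as the mean of its probe sets), the interferon-induced membrane proteins Ifitm1 (1.76) and Ifitm2 (1.51), the inflammatory protease Casp1 (1.11) and the cell cycle inhibitor Cdkn1a (0.65) were above WT and below Foxo1KO in both tests. Penk, which encodes the precursor of enkephalins, passed WT in the opposite direction, at 11.47 and 11.24 in WT, 13.36 and 13.48 in Foxo1KO, 8.99 in Foxo1AAA and 10.13 in Foxo1KO/Foxo1AAA.

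Of genes low in the knockout, most were not called below WT. Nrp1, a surface receptor of thymus-derived regulatory T cells, measured 12.45 and 12.34 in WT, 9.30 and 9.07 in Foxo1KO, 12.45 in Foxo1AAA and 12.30 in Foxo1KO/Foxo1AAA. The Foxo1KO arrays alone were low; the difference from WT was -0.10 (SE 0.14, limma adjusted p = 0.643), which turned to 0.04 when its probe sets were averaged. Nt5e, the enzyme CD73 that makes adenosine, differed from WT by -0.01 (SE 0.12), with a sign that turned under median alignment and without WT replicate 1. Klf2, a factor that keeps T cells circulating, differed by -0.01 (SE 0.16), a sign that turned under median alignment and without WT replicate 2. Id3 (-0.38), Itga4 (-0.40), the sialyltransferase St8sia6 (-0.50), H2-Ob (0.44) and the cell death activator Bcl2l11 (0.21) were not called against WT, and all 5 were above Foxo1KO. St8sia6, which ranged from -0.688 to -0.255 over the settings, was called lower under some alternatives. Bcl2l11, which ranged from 0.107 to 0.532, was called higher under an alternative. A p that misses the threshold does not show that levels are equal.

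Several of these genes went past WT. Prg4, a secreted lubricating proteoglycan, measured 8.46 and 8.58 in WT, 5.25 and 5.10 in Foxo1KO, 12.14 in Foxo1AAA and 11.91 in Foxo1KO/Foxo1AAA. Both Foxo1AAA-carrying arrays lay above WT and both Foxo1KO arrays below it, without overlap, and Foxo1KO/Foxo1AAA was 10.5-fold above WT (log2 3.39, SE 0.13, limma adjusted p = 4.82e-06). Dapl1, which is typical of resting T cells, measured 8.06 and 8.67 in WT, 6.20 and 5.46 in Foxo1KO, 10.96 in Foxo1AAA and 10.87 in Foxo1KO/Foxo1AAA, and showed the same order of arrays (5.68-fold above WT, adjusted p = 0.00102). The survival receptor Il7r measured 11.74 and 11.71 in WT, 10.003 and 10.50 in Foxo1KO, 12.22 in Foxo1AAA and 12.60 in Foxo1KO/Foxo1AAA (log2 0.88 over WT, SE 0.19, adjusted p = 0.0126). Gpr34 (0.70), the homing receptor Ccr7 (0.54) and the integrin Itgb1 (0.50) were called as well; the Ccr7 call ended without WT replicate 1 (adjusted p = 0.0517), and that of Itgb1 under 3 alternatives. Sesn1, a stress-induced inhibitor of mTOR signalling, stayed short of WT at 11.33 against 11.84 and 11.92 (-0.56, adjusted p = 0.0137), a call that ended without WT replicate 2 (adjusted p = 0.0517).

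The promoter of Dapl1 is shown because it was 1 of 2 among the 25 hallmark genes in the RefSeq table to hold GTAAACA, a core forkhead motif, on either strand within 250 bases before the start (8.0%, against 3.1% of 27025 genes); the other was Bcl2l11. It lies at chr2:59484403-59484652 on the + strand of GRCm38.p6, the match begins at position -164, and capitals mark it. A window without the letters says nothing about Foxo1 binding elsewhere.
Dapl1: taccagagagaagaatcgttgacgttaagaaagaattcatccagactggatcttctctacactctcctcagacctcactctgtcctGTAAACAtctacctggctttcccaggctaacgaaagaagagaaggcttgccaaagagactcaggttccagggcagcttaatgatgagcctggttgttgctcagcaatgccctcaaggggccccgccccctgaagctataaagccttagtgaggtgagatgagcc

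**Figure D4:**
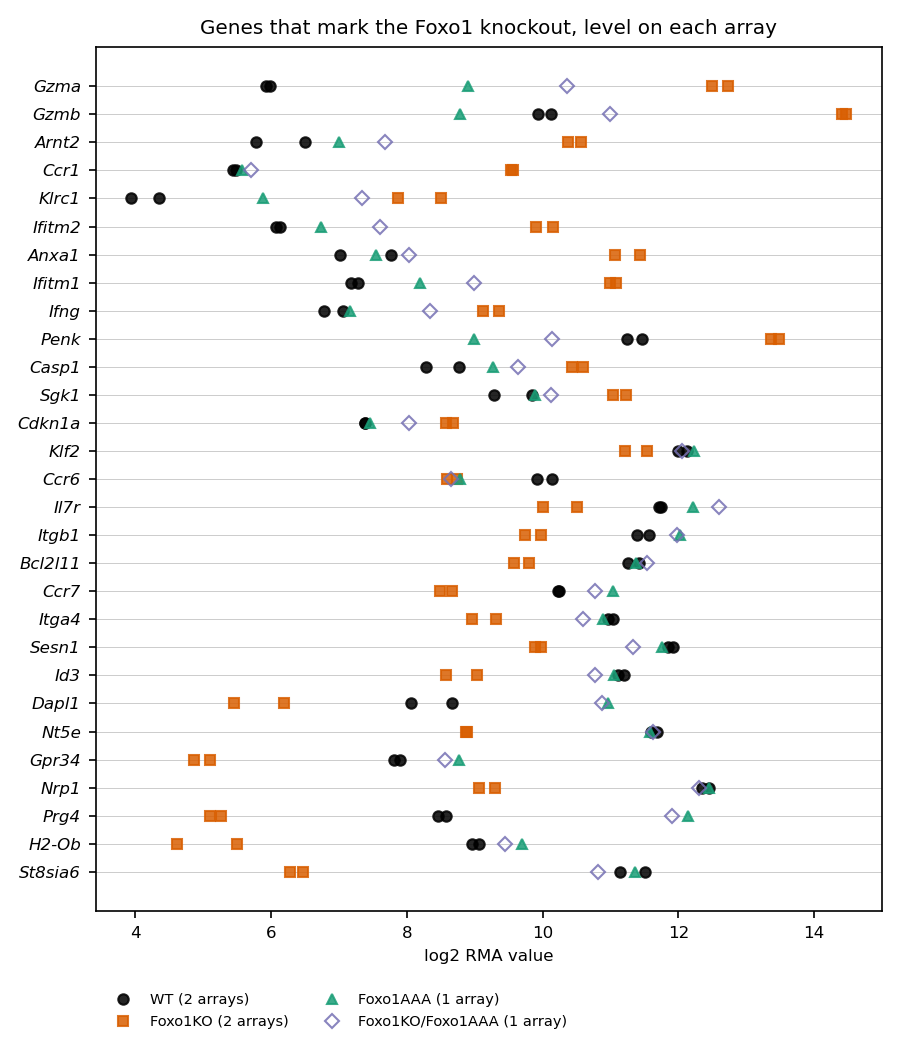
Log2 levels of the 29 measured knockout hallmark genes on the 6 arrays, with 1 point per array, coloured by genotype. Gzma on Foxo1KO/Foxo1AAA (10.35) lies between WT and Foxo1KO, Nrp1 (12.30) lies with WT, Prg4 (11.91) lies above WT, and Ccr6 (8.65) lies with Foxo1KO.

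The T cell lists are read against the shares over all genes, 12.2% called higher and 10.9% lower than WT, and 13.9% higher and 17.5% lower than Foxo1KO. Of 24 Th1 genes, 13 were called higher than WT and 2 lower (median 0.55), and 15 were lower than Foxo1KO and 3 higher. Of 28 effector Treg genes, 13 were higher than WT and 1 lower (median 0.44), and of 18 cytotoxic granule genes 12 were higher and 1 lower (median 0.69). Of 27 naive and central T cell genes, 3 were higher than WT and 3 lower (median -0.05), which is about the share over all genes, and 22 were higher than Foxo1KO and 2 lower. Over the alternatives, 2 to 7 of these 27 were called in each direction. Of 26 Foxo targets, 7 were higher than WT and 3 lower, with a median of 0.01.

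Cytokine and receptor genes of the effector lists were measured as follows. The inhibitory cytokine Il10 measured 7.87 and 7.54 in WT, 8.54 and 8.85 in Foxo1KO, 8.79 in Foxo1AAA and 9.49 in Foxo1KO/Foxo1AAA, the highest of the 6 (log2 1.79 over WT, SE 0.18, limma adjusted p = 0.000359). The chemokine Ccl3 measured 5.31 and 5.27 in WT, 6.84 and 6.28 in Foxo1KO, 5.91 in Foxo1AAA and 8.24 in Foxo1KO/Foxo1AAA, at least 6.81-fold above WT and above Foxo1KO too. Il4, the signature cytokine of Th2 cells, measured 5.64 and 5.36 in WT, 7.13 and 6.75 in Foxo1KO, 7.07 in Foxo1AAA and 7.63 in Foxo1KO/Foxo1AAA. Il4 was 4.37-fold above WT, and its 3 mutant genotypes all lay above both WT arrays. Genes dim in WT that rose were the NK receptor chain Klrd1 (at least 8.55-fold), the T cell growth factor Il2 (at least 4.0-fold) and the follicular cytokine Il21 (at least 2.84-fold). Il2 was no higher in Foxo1KO, at 5.55 and 4.99, than in WT, at 5.46 and 5.28. The mean of the Il21 probe sets rose by only 0.73. The chemokine Ccl5 (2.04), the granzyme Gzmk (2.08) and the effector regulator Prdm1 (1.59) rose as well. The inhibitory receptor Havcr2 measured 5.70 and 5.45 in WT, 8.68 and 9.34 in Foxo1KO, 6.58 in Foxo1AAA and 7.51 in Foxo1KO/Foxo1AAA, above WT (log2 1.93) and below Foxo1KO. The transcription factor Eomes (1.06 over WT) followed that order too.

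A group of genes was higher than both WT and Foxo1KO and also high with Foxo1AAA alone. Jun, a subunit of the AP-1 transcription factor, measured 6.38 and 5.89 in WT, 6.56 and 6.64 in Foxo1KO, 8.51 in Foxo1AAA and 8.87 in Foxo1KO/Foxo1AAA, 6.66-fold above WT (limma adjusted p = 5.45e-05). The AP-1 subunit Fosl2 (1.64, or 0.49 as the mean of its probe sets), the transcription factor Nfil3 (1.79), the transcriptional regulator Cited2 (1.35), the kinase Pim2 (1.67) and the TNF family ligand Tnfsf8 (1.93) were called against both WT and Foxo1KO too, and were higher on Foxo1AAA than on any WT or Foxo1KO array. Slamf6, a receptor of stem-like and resting T cells, measured 10.50 and 10.46 in WT, 8.96 and 8.97 in Foxo1KO, 11.32 in Foxo1AAA and 11.58 in Foxo1KO/Foxo1AAA, a rise of 1.10 over WT (0.67 as the mean of its probe sets). Of the 28 immediate early genes, to which Jun belongs, 4 were called higher and 1 lower, with a median of 0.18. The shares over all genes were 12.2% higher and 10.9% lower than WT.

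Large falls were few. Ctse, the protease cathepsin E, measured 11.77 and 11.03 in WT, 11.87 and 11.84 in Foxo1KO, 9.37 in Foxo1AAA and 9.09 in Foxo1KO/Foxo1AAA. Both Foxo1AAA-carrying arrays lay below the other 4, and Foxo1KO/Foxo1AAA was 4.94-fold below WT (log2 -2.30, SE 0.25, limma adjusted p = 0.000537), although the mean of its probe sets differed by -0.62 (adjusted p = 0.0228). The calcium channel Ryr2 (-1.60), the transketolase-like gene Tktl1 (-1.45), the metalloprotease Adam12 (-1.22) and the IL-18 receptor chain Il18r1 (-1.23) fell, and all 4 were lower on both Foxo1AAA-carrying arrays than on the other 4. Means of probe sets gave -0.81 for Ryr2 and -0.81 for Adam12. Neo1, a receptor of the netrin and RGM families, fell by 1.27, but its probe sets disagreed and their mean was not called (-0.22, adjusted p = 0.143). The cytokine ligand Tnfsf11 (-1.11) and the nuclear receptor Rora (-0.99) fell with the same separation of arrays (-0.37 and -0.54 as means of probe sets).

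Ccr6, Gpr15, Cc2d2a and Foxp1, described below, were under WT on the Foxo1KO arrays as well. Not every fall was shared in this way. Pisd-ps3 (-1.35) and Zfp982 (-1.20) were below WT, while Foxo1KO differed from WT by 0.004 and 0.009. Ccr6, a chemokine receptor of gut-homing and effector cells, measured 10.14 and 9.92 in WT, 8.59 and 8.73 in Foxo1KO, 8.78 in Foxo1AAA and 8.65 in Foxo1KO/Foxo1AAA. Only the WT arrays were high; Foxo1KO/Foxo1AAA was 2.60-fold below WT (log2 -1.38, SE 0.14, limma adjusted p = 0.000407) and differed from Foxo1KO by -0.01 (SE 0.14, adjusted p = 0.976). Gpr15, a receptor that brings regulatory T cells to the colon, measured 8.92 and 8.67 in WT, 7.76 and 7.25 in Foxo1KO, 6.78 in Foxo1AAA and 7.08 in Foxo1KO/Foxo1AAA, with -1.72 against WT and -0.43 against Foxo1KO (SE 0.21, adjusted p = 0.145). Cc2d2a, a protein of the primary cilium, was likewise highest on the WT arrays, with -1.32 against WT and -0.21 against Foxo1KO (adjusted p = 0.325). Foxp1, a forkhead factor of resting T cells, measured 12.22 and 12.25 in WT, 10.68 and 10.59 in Foxo1KO, 11.48 in Foxo1AAA and 11.30 in Foxo1KO/Foxo1AAA, between WT and Foxo1KO (-0.94 against WT), but the mean of its probe sets was not called (-0.30, adjusted p = 0.0597). The chemokine receptor Ccr2, high in the knockout at 12.57 and 12.68, was below WT (10.99 and 10.45) in Foxo1AAA at 8.69 and in Foxo1KO/Foxo1AAA at 9.51. Of 29 trafficking receptors, the list that holds these chemokine receptors, 8 were called higher and 3 lower than WT (median -0.02). Among all genes 12.2% were called higher and 10.9% lower.

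Interferon, stress and metabolic lists had smaller medians. Over all genes, 12.2% were called higher and 10.9% lower than WT, and 13.9% higher and 17.5% lower than Foxo1KO. Of 31 interferon response genes, 11 were called higher than WT and none lower (median 0.26), while 16 were lower than Foxo1KO and none higher. Ifitm3, a membrane protein that blocks virus entry, measured 7.06 and 6.82 in WT, 10.63 and 10.78 in Foxo1KO, 8.71 in Foxo1AAA and 9.18 in Foxo1KO/Foxo1AAA, with the Foxo1AAA-carrying arrays between the others. Bst2, which tethers viruses to the cell, rose by 1.43. Of 14 heat shock genes, 6 were called higher than WT and none lower (median 0.34), and the count ranged from 3 to 9 over the alternatives. The chaperone Hspa1b measured 7.01 and 6.75 in WT, 6.60 and 6.43 in Foxo1KO, 9.14 in Foxo1AAA and 8.53 in Foxo1KO/Foxo1AAA, 3.13-fold above WT (limma adjusted p = 0.000224). Of 17 glycolysis genes 8 were higher and 1 lower (median 0.35), among them the triosephosphate isomerase Tpi1 (1.20), which was also above WT on both Foxo1KO arrays. Oxidative phosphorylation (4 of 27 higher, none lower) and cholesterol synthesis (5 of 16 higher, none lower) had medians of 0.15 each, and without WT replicate 2 only 1 member of each was called. Autophagy (1 of 20 in each direction, median 0.17), apoptosis (6 of 20 higher, 2 lower, 0.04) and PI3K and mTOR signalling (2 of 26 higher, 3 lower, 0.03) are the rest of this group.

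Among 15 Th2 genes 6 were called higher than WT and none lower (median 0.11), where 12.2% of all genes were higher and 10.9% lower. Among 12 Th17 genes 4 were called in each direction (0.08). Follicular helper genes (4 of 17 higher, 2 lower, -0.03), NF-kB and costimulation genes (2 of 20 in each direction, 0.17) and genes of the common gamma chain cytokines (5 of 19 higher, 2 lower, 0.20) make up the rest. The CD8 T and NK markers (4 of 9 higher, none lower, 0.20) summed to 723 and 724 in WT, 1286 and 1360 in Foxo1KO, 1028 in Foxo1AAA and 1445 in Foxo1KO/Foxo1AAA. That sum was above WT in all 3 mutant genotypes, and the called members were Klrd1, Klrc1, Cd8b1 (1.10) and Klrk1 (1.06). Of 9 erythroid and platelet markers 2 were called higher and none lower (median -0.09).

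**Figure D5:**
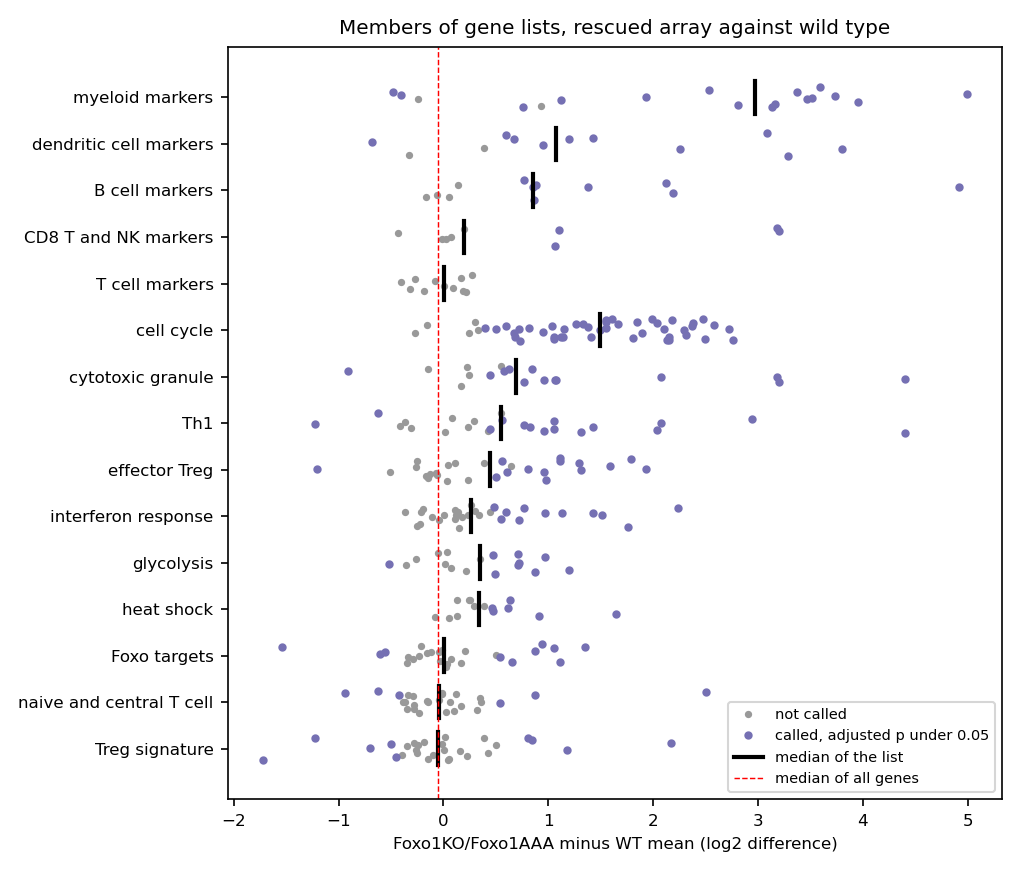
Log2 differences of the members of 15 gene lists, Foxo1KO/Foxo1AAA minus the WT mean, with 1 point per gene and the list's median marked. The medians of myeloid markers (2.97), cell cycle (1.49) and dendritic cell markers (1.07) lie farthest above the median of all genes (-0.05).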

How the data were processed

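The deposited values were log2 levels from Affymetrix arrays of 6 samples; RMA, which corrects background, quantile-normalizes all arrays together and summarizes each probe set, had been applied, and the submitters' processing notes name R 2.15 with limma 3.12.1 beside it. Quantile normalization hides a shift of most transcripts, and differences of dim or very bright probe sets are understated. Of 45101 probe sets, 34958 were listed with 1 gene, 932 with several and 9211 were not listed; each of 18194 genes was read from its brightest probe set over the 6 arrays. The model (limma 3.58.1, R 4.3.3) took every probe set and gave each of the 4 genotypes its own mean, with 2 residual degrees of freedom and p adjusted over all probe sets (two-sided). The method was tested on simulated data. All simulated arrays shared the same spread, so the assumption that the lone array varies like the pairs was not tested.

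Members and gene lists were chosen with earlier results of these data known. Named genes were the 20 largest called rises and falls outside the sex-specific genes, the 4 largest called members and the largest opposite member of each of 31 lists, all Foxo, sex-specific and hallmark genes, and Foxp3. Alternatives covered scaling, filters on dim probe sets, the choice of probe set, the variance prior and leaving out each replicate. The number of arrays limits the precision. Promoters came from a RefSeq table.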

Additional observations from a re-analysis of the deposited data

How the results depend on the processing

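Fitting 1 probe set per gene alone gave 4716 calls against WT, 6430 against Foxo1KO, 2945 for Foxo1KO against WT and 602 at least 2-fold from both WT arrays; averaging the probe sets of each gene gave 4526, 6504, 2961 and 485, in place of 10972, 13826, 6187 and 1358. These fits test 18194 features, not 45101. Leaving out the lowest 50% of probe sets gave 8279 calls against Foxo1KO. Without 1 replicate at a time the counts ranged from 7219 to 9455 against WT, 8626 to 13642 against Foxo1KO, 3408 to 4504 for Foxo1KO against WT, and 1359 to 1773 for the 2-fold rule. With array medians aligned, 60.2% of the calls against Foxo1KO were higher, in place of 47%. The share of higher calls against WT was 62.6%, in place of 47.9%. Signs turned for Klf2 (0.067 with medians aligned, -0.075 to 0.055 without 1 WT replicate), Nt5e (0.065, and -0.056 to 0.033) and Foxo3 (0.045, and -0.135 to 0.071). With probe sets averaged, signs turned for Foxm1 (0.232), Nrp1 (0.043) and Hspb1 (0.343), of which only Hspb1 was then called. The cause was not tested. Of the 166 named genes, 0 to 15 lost their call and 0 to 5 gained one under each alternative, with the most losses without WT replicate 2. With the replicate number as a block, Foxo1KO against WT gave 4806 calls. The differences between replicates 1 and 2 of WT and of Foxo1KO correlated at -0.1 across probe sets, although equal numbers shared their pattern of sex-specific transcripts. No label ties equal numbers to a shared litter or day. A single Foxo1KO/Foxo1AAA array leaves its own spread unmeasured.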

Other observations

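In a list of 8 measured neutrophil genes, chosen after the values were seen, differences from WT ran from -0.50 to 1.12 with a median of -0.11, and 3 lay above both WT arrays. The calprotectin chains S100a9 (1.12) and S100a8 (0.93 as measured) were the highest. S100a8 was dim in WT, at least 1.14-fold higher, and not called. The summed linear level of the neutrophil list was 525 and 605 in WT, 803 and 702 in Foxo1KO, 536 in Foxo1AAA and 570 in Foxo1KO/Foxo1AAA. Monocyte genes, listed in the same way, ran from -1.20 (Ccr2) to 4.32 (Adgre4, dim in WT), with a median of 3.22 over 8 genes. Plasma cell genes, also listed after the values were seen, ran from -0.49 (Sdc1) to 4.92 (Jchain), with a median of 1.59 over 13 genes. Tnfrsf17, dim in WT, differed by 0.15 as measured. The summed levels of the plasma cell genes were 6263 and 5960 in WT, 8758 and 8866 in Foxo1KO, 11646 in Foxo1AAA and 11835 in Foxo1KO/Foxo1AAA. The Foxo1KO sums thus lay between WT and the Foxo1AAA-carrying arrays. Xbp1, the brightest member, weighs most in these sums. It measured 11.87 and 11.79 in WT, 12.15 and 12.26 in Foxo1KO, 11.80 in Foxo1AAA and 11.77 in Foxo1KO/Foxo1AAA. The sums therefore do not follow plasma cell transcripts alone.

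Among the largest falls were transcripts known by clone names. Of these, 1110032F04Rik measured 9.96 and 10.08 in WT, 7.74 and 7.60 in Foxo1KO, 9.10 in Foxo1AAA and 8.84 in Foxo1KO/Foxo1AAA. A530021J07Rik measured 6.87 and 6.67 in WT, 3.94 and 3.998 in Foxo1KO, 6.56 in Foxo1AAA and 5.57 in Foxo1KO/Foxo1AAA. Both lay between WT and Foxo1KO on the Foxo1KO/Foxo1AAA array, with differences of -1.19 and -1.20 from WT. A further one, 1810006J02Rik, measured 5.70 and 5.57 in WT, 4.58 and 4.57 in Foxo1KO, 4.68 in Foxo1AAA and 4.25 in Foxo1KO/Foxo1AAA, the lowest of the 6 and, like the other mutant values, below the level of the dimmest 25% of genes.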
